A study of Mus musculus with 10 samples.

Results

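The genes described here are 10 heat shock and small chaperone genes, read mouse by mouse in gastrocnemius muscle after chronic cigarette smoke. The members were taken by symbol from the 49315 gene identifiers of the count table, and all 10 passed the filter on low counts that left 14714 genes for testing. They were selected on levels seen in these mice, in that Hspa1a had been read as highest in 1 AHRmko mouse, so the values of Hspa1a and of its near-copy Hspa1b are given as a description, without a test. The muscles came from 10 male C57BL6J mice, 5 AHR-floxed littermates lacking Cre (AHRfl) and 5 mice with the aryl hydrocarbon receptor gene (Ahr) deleted in skeletal muscle (AHRmko). Both groups breathed cigarette smoke for 16 weeks, 5 days per week, in 2 sessions of 1 h per day, at 220 ± 80 mg/m3 of suspended particulates, and muscle was taken 72 h after the last exposure by the series description. The harvest is elsewhere given as a range of times that ends there. Deletion was driven by tamoxifen through HSA-MCM, a MerCreMer fusion under the human ACTA1 promoter, so that only cells using that promoter lose the receptor. The mice are described as aged, without a figure. The paper's results date the exposure of both genotypes from tamoxifen delivery, without an explicit statement that the AHRfl mice received it. Air-exposed mice were not analysed here.

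Heat shock proteins keep other proteins folded. In unstressed cells the transcription factor HSF1 is held inactive, in part by chaperones, and misfolded protein releases it to bind heat shock elements, repeats of nGAAn in alternating direction, in the promoters of genes such as Hspa1a, Hspa1b, Hsph1, Dnajb1 and Hspb1. Skeletal muscle also holds large constitutive amounts of small heat shock proteins, which bind partly unfolded proteins without using ATP and associate with the contractile apparatus. HSP90 has a further link to the deleted gene, because the unliganded aryl hydrocarbon receptor rests in the cytosol in a complex with it.

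Promoter sequence is shown for members that varied widely between mice, 2 known as targets of HSF1 beside Hspb7. Windows of 250 bases before the start of transcription were given by RefSeq (GRCm38.p6) for 7 of the 10 members (10 windows in all). Hspa8, Hsp90aa1 and Cryab were not matched. A 2-unit element, GAANNTTC or TTCNNGAA, each of which reads the same on both strands, lay in 6 of the 10 windows (60%), those of Hspa1a, Hspa1b, Hspb1, 1 of Hspb6 and 2 overlapping ones of Hsph1 that share the site, and in 12.8% of all 32851 windows. Hspa1a (chr17:34972157-34972406, minus strand) held 1 match and Hspb1 (chr5:135887669-135887918, plus strand) held 2, whereas Hspb7 (chr4:141420529-141420778, plus strand) held none. Neither window of Dnajb1, also known as a target of HSF1, held a match. Of these, chr8:83607925-83608174 lies before the GENCODE gene, and chr8:83608298-83608547 lies inside it, as do both windows of Hspb6. Such windows precede the start of a RefSeq transcript but not that of the GENCODE gene. The 3 windows are shown 5′ to 3′, each ending at the base before the start of transcription, with 2-unit matches in capitals.
Hspa1a: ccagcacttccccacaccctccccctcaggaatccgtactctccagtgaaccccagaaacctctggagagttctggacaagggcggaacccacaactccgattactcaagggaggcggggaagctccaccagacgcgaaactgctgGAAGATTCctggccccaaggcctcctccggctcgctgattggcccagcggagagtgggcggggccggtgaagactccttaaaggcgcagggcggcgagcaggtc
Hspb1: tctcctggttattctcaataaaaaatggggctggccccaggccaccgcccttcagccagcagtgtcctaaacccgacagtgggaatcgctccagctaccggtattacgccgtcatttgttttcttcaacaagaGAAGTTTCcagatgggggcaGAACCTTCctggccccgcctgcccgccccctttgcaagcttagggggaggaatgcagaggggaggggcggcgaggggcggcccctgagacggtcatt
Hspb7: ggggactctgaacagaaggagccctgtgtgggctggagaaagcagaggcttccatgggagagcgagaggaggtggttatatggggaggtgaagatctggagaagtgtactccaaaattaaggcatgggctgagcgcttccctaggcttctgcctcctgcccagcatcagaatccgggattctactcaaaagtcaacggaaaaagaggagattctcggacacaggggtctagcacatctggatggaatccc

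The match in Hspa1a began 104 bases before the start, and those in Hspb1 began 117 and 97 bases before it. The window of Hspa1b (chr17:34959239-34959488, minus strand) held the same match at the same place and differed from that of Hspa1a at 3 positions, C44T, T47C and T249G, counted from 1 at the 5′ end of the Hspa1a window. In Hsph1 the match was of the other form and lay 33 bases before the start of one RefSeq transcript. The GENCODE gene starts further upstream, at 149636376, so the match lies inside its first exon. The stretch shown is chr5:149636351-149636380 on the minus strand.
Hsph1: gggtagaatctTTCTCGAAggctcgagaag

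GAANNTTC alone was found in 6.69% and TTCNNGAA alone in 7.17% of all windows. Forms of 3 units, which add a further unit in alternating direction to either of these, were found in 0.466% of windows and in none of the members'. The core of the element bound by the aryl hydrocarbon receptor, GCGTG or its reverse complement CACGC, lay in 28.2% of windows, among them windows of Dnajb1 and Hspb6. A match of letters does not show that a factor binds, and no match says only that these letters are not in the window.

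None of the 8 members put to the test between the genotypes passed it. Called at an adjusted p of 0.05 by the quasi-likelihood test of edgeR were 0 of the 8 members other than Hspa1a and Hspa1b and 1 of 14714 genes (0.0068%), while 972 genes (6.61%) had an unadjusted p under 0.05, among them 1 member, Dnajb1. DESeq2 and limma-voom also called 0 of the 8. The log2 fold change was above 0 for Hspa8, Hsph1, Hsp90aa1 and Dnajb1 and below 0 for Hspb1, Hspb6, Hspb7 and Cryab. Among all genes tested, 51.5% were above 0. With Hspa1a and its near-copy Hspa1b added, 6 members were above 0 and 4 below. Without AHRmko 34 this pair and Hsp90aa1 fell below 0. The median log2 fold change was 0.13 over the 10 members and 0.04 over the 8 others than Hspa1a and Hspa1b. It was 0.01 over all genes, and that of the members was -0.11 without AHRmko 34. The groups overlapped in every member, while 206 genes (1.4%) had groups that did not overlap. Beside Hspa1a, chosen for it, and Hspa1b, AHRmko 34 had the highest level of 5 of the other 8 members, where it was highest for 10.9% of all genes tested. The other 3 members, Hspb6, Hspb7 and Cryab, were all highest in AHRfl 15 and lowest in AHRfl 12. Of all genes tested, 8.44% were highest in AHRfl 15 and 15.3% lowest in AHRfl 12.

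**Figure D1:**
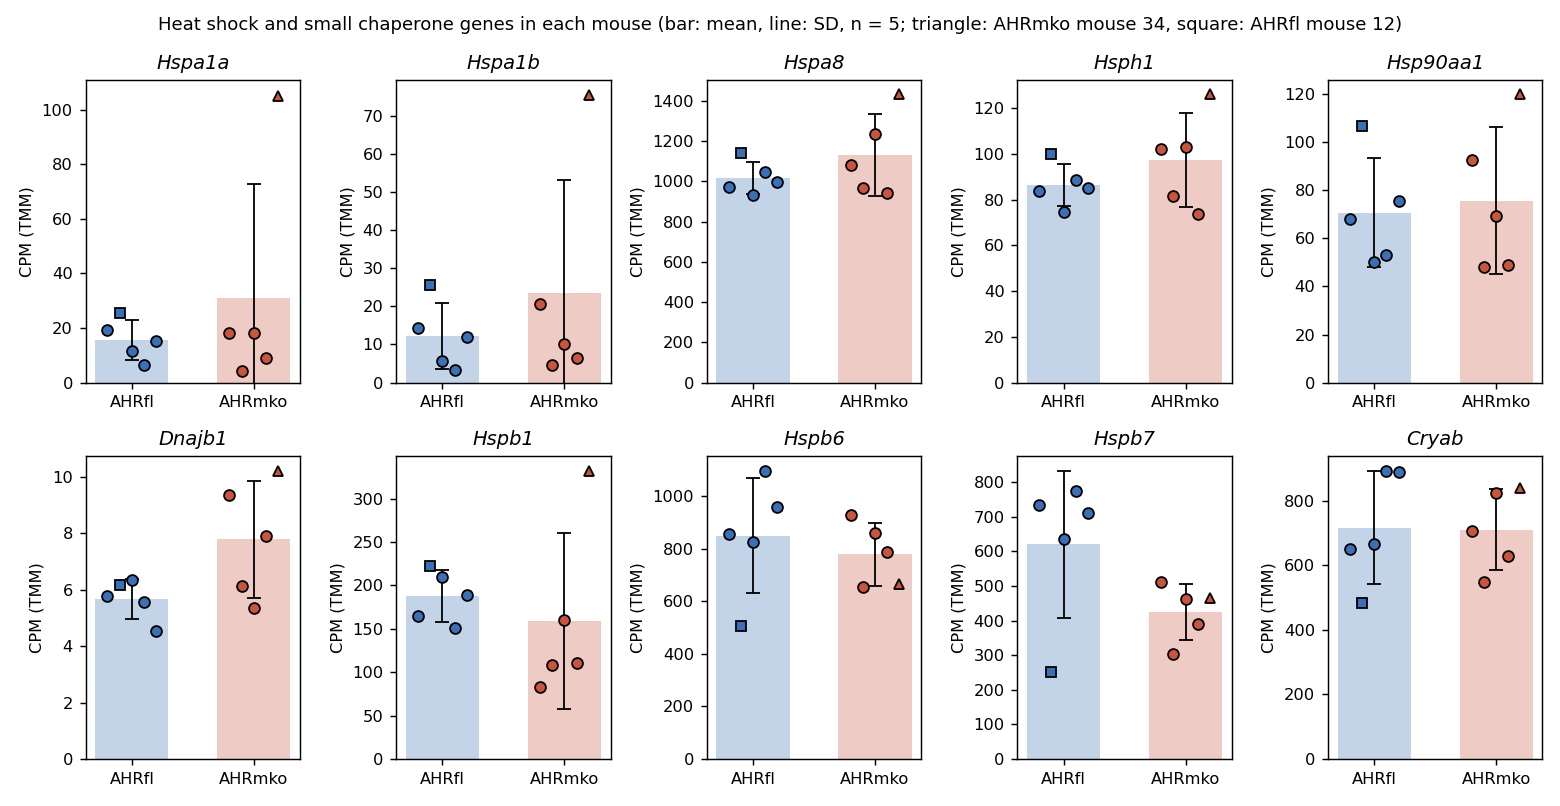
Level of each gene in each mouse, in CPM (counts scaled to library size, linear axes from 0), with bars for the group mean and lines for the SD of 5 mice. The triangle, AHRmko 34, is the highest point in 7 panels, and the square, AHRfl 12, is the lowest in the panels of Hspb6, Hspb7 and Cryab.

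Hspa1a and Hspa1b encode the stress-inducible HSP70 proteins, ATP-driven chaperones that bind exposed hydrophobic stretches. In CPM, counts scaled to library size with TMM factors, the level of Hspa1a was 19.4, 25.5, 11.6, 6.29 and 15.2 CPM in AHRfl 11, 12, 13, 15 and 33, and 18.1, 4.40, 18.0, 8.94 and 105 CPM in AHRmko 8, 9, 19, 22 and 34. Of the other 4 AHRmko mice, 3 lay within the AHRfl range and AHRmko 9 lay below it, and AHRmko 34 was 4.13-fold above the next mouse, AHRfl 12. Hspa1b was at 14.3, 25.6, 5.78, 3.40 and 11.96 CPM in AHRfl 11, 12, 13, 15 and 33, and at 20.5, 4.53, 10.1, 6.42 and 75.4 CPM in AHRmko 8, 9, 19, 22 and 34. Here too AHRmko 34 was the highest, 2.94-fold above AHRfl 12, and the groups overlapped in the other mice. The log2 fold change of AHRmko over AHRfl was 0.99 (SE 0.85, 95% interval -0.97 to 2.94) for Hspa1a and 0.93 (SE 0.88, interval -1.09 to 2.96) for Hspa1b, and without AHRmko 34 it was -0.33 and -0.23. The SD of log2 CPM over the 10 mice was 1.25 for Hspa1a and 1.33 for Hspa1b, which includes the value they were chosen for. Without AHRmko 34 it was 0.83 for Hspa1a and 0.99 for Hspa1b, against a median of 0.21 over all genes tested in the same 9 mice.

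The Hspa1a and Hspa1b genes lie near each other on chromosome 17 of GRCm38, at 34969190-34972156 and 34956436-34959238, both on the minus strand and each in 1 exon. Their coding sequences of 1923 and 1926 bases differed at 8 of 1923 aligned bases, and 47.1% of the 100-base words of Hspa1a transcripts also occurred in those of Hspa1b. As uniquely mapped reads were counted, part of their reads could be lost or assigned to the wrong copy, and the level of either gene alone is uncertain. Counts summed over the pair gave 33.7, 51.1, 17.3, 9.70 and 27.1 CPM in AHRfl 11, 12, 13, 15 and 33, and 38.7, 8.93, 28.1, 15.4 and 180.5 CPM in AHRmko 8, 9, 19, 22 and 34. AHRmko 34 and AHRfl 12 were again the 2 highest mice, with a log2 fold change of 0.96 (SE 0.86, interval -1.003 to 2.93), or -0.29 without AHRmko 34. The genotype ratio of the summed pair also moved with the method, at 0.34 on the log2 scale in limma-voom and 0.98 in DESeq2.

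Hspa8 encodes HSC70, the constitutive cytosolic HSP70 that also uncoats clathrin vesicles and serves chaperone-mediated autophagy. Its level was 971, 1140, 933, 1049 and 998 CPM in AHRfl 11, 12, 13, 15 and 33, and 1084, 969.8, 1234, 945 and 1434 CPM in AHRmko 8, 9, 19, 22 and 34. The highest and the second highest mice were AHRmko 34 and AHRmko 19, but 2 AHRmko mice lay below the AHRfl median. For Hspa8 the log2 fold change was 0.15 (SE 0.11, interval -0.09 to 0.39, edgeR quasi-likelihood test, adjusted p = 0.839), and 0.055 without AHRmko 34. Of the counts per exon length of Hspa1a, Hspa1b and Hspa8 together, the inducible pair made up between 1.35% and 6.27% in 9 mice and 15.8% in AHRmko 34. The constitutive gene took the larger share of cytosolic HSP70 transcripts in all 10 mice.

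Hsph1 encodes HSP110, a large relative of HSP70 that acts as its nucleotide exchange factor. It was at 83.8, 100.2, 74.7, 88.5 and 84.9 CPM in AHRfl 11, 12, 13, 15 and 33, and at 102, 81.7, 103, 73.9 and 126 CPM in AHRmko 8, 9, 19, 22 and 34. AHRmko 34 was highest and AHRmko 22 lowest, so the AHRmko mice spanned the whole AHRfl range. For Hsph1 it amounted to 0.17 on the log2 scale (SE 0.13, interval -0.11 to 0.46, edgeR adjusted p = 0.848), and 0.06 without AHRmko 34.

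Hsp90aa1 encodes the inducible isoform of cytosolic HSP90, which in muscle assists myosin folding. Its level was 67.9, 107, 50.3, 53.1 and 75.7 CPM in AHRfl 11, 12, 13, 15 and 33, and 92.5, 48.0, 69.2, 49.1 and 120.1 CPM in AHRmko 8, 9, 19, 22 and 34. AHRmko 34 and AHRfl 12 were the 2 highest mice, 1 of each genotype. Between the genotypes its log2 fold change was 0.10 (SE 0.31, interval -0.60 to 0.79, edgeR adjusted p = 0.977), and it was -0.13 without AHRmko 34 and 0.29 without AHRfl 12.

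Dnajb1 encodes the main stress-inducible HSP40, which delivers clients to HSP70 and stimulates its ATPase. It was at 5.77, 6.17, 6.35, 5.58 and 4.54 CPM in AHRfl 11, 12, 13, 15 and 33, and at 9.35, 6.13, 5.34, 7.91 and 10.2 CPM in AHRmko 8, 9, 19, 22 and 34. AHRmko 8, 22 and 34 lay above every AHRfl mouse, while AHRmko 9 and 19 lay among them. The log2 fold change was 0.45 (SE 0.17, interval 0.09 to 0.82), with an unadjusted p of 0.0195 and an adjusted p of 0.665 in edgeR's quasi-likelihood test. The two-sided exact permutation test of mean log2 CPM over the 252 splits of the 10 mice gave p = 0.0952. With 3.23% of all genes higher in AHRmko at an unadjusted p under 0.05, 1 of the 8 members tested is not a result about the members. The depth was low for this gene, at 147 to 356 counts per mouse.

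Hspb1 encodes HSP27, called HSP25 in mice, a stress-responsive small heat shock protein that binds actin filaments. Its level was 165, 223, 209, 151 and 189 CPM in AHRfl 11, 12, 13, 15 and 33, and 82.8, 108, 161, 111 and 333 CPM in AHRmko 8, 9, 19, 22 and 34. AHRmko 8, 9 and 22 were lower than every AHRfl mouse, AHRmko 19 lay within the AHRfl range and AHRmko 34 was the highest of all, so the AHRmko SD was 101 CPM against 29.8 CPM in AHRfl. Over all mice the log2 fold change of Hspb1 was -0.24 (SE 0.36, interval -1.06 to 0.59, edgeR adjusted p = 0.939). Without AHRmko 34 it was -0.70, with an adjusted p of 0.407 in the same edgeR test, and without AHRmko 8 it was -0.07. Of the 100-base words of Hspb1, 44% also occurred in the pseudogene Hsp25-ps1, which had 20 to 44 counts per mouse against 3151 to 11123 for Hspb1.

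Hspb6 (HSP20), Hspb7 and Cryab (alphaB-crystallin) encode small heat shock proteins that are abundant in heart and skeletal muscle. Hspb6 can be phosphorylated by protein kinase A, Hspb7 associates with filamin C and thin filaments, and Cryab binds desmin and titin. All 3 were highest in AHRfl 15 and lowest in AHRfl 12. Hspb6 was at 856, 506, 826, 1097 and 959 CPM in AHRfl 11, 12, 13, 15 and 33, and at 929, 654, 859, 787 and 664 CPM in AHRmko 8, 9, 19, 22 and 34. All AHRmko mice lay within the AHRfl range, and the log2 fold change was -0.12 (SE 0.18, interval -0.52 to 0.27, edgeR adjusted p = 0.936). It was -0.01 without AHRfl 15 and -0.265 without AHRfl 12.

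Hspb7 was at 733, 249.97, 635, 773 and 711 CPM in AHRfl 11, 12, 13, 15 and 33, and at 510.3, 303, 462, 390.0 and 464 CPM in AHRmko 8, 9, 19, 22 and 34. The other 4 AHRfl mice lay above all 5 AHRmko mice, and AHRfl 12 lay below all 9 others. The log2 fold change was -0.54 (SE 0.28, interval -1.17 to 0.08), with an adjusted p of 0.792 in edgeR's quasi-likelihood test and an exact permutation p of 0.206. Without AHRfl 12 the log2 fold change was -0.74 (edgeR adjusted p = 0.305), so this mouse did not decide its direction.

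Cryab was at 649.6, 484, 666, 894 and 890.3 CPM in AHRfl 11, 12, 13, 15 and 33, and at 707, 548, 825, 630.3 and 841 CPM in AHRmko 8, 9, 19, 22 and 34. The group means were 717 ± 175 and 710 ± 125 CPM (SD, n = 5 each), with a log2 fold change of -0.01 (SE 0.17, interval -0.39 to 0.36, edgeR adjusted p = 0.994). Cryab overlaps Hspb2 on the opposite strand over 252 of its 1479 exon bases, and whether strand was used in counting is not given in the sources used here.

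**Figure D2:**
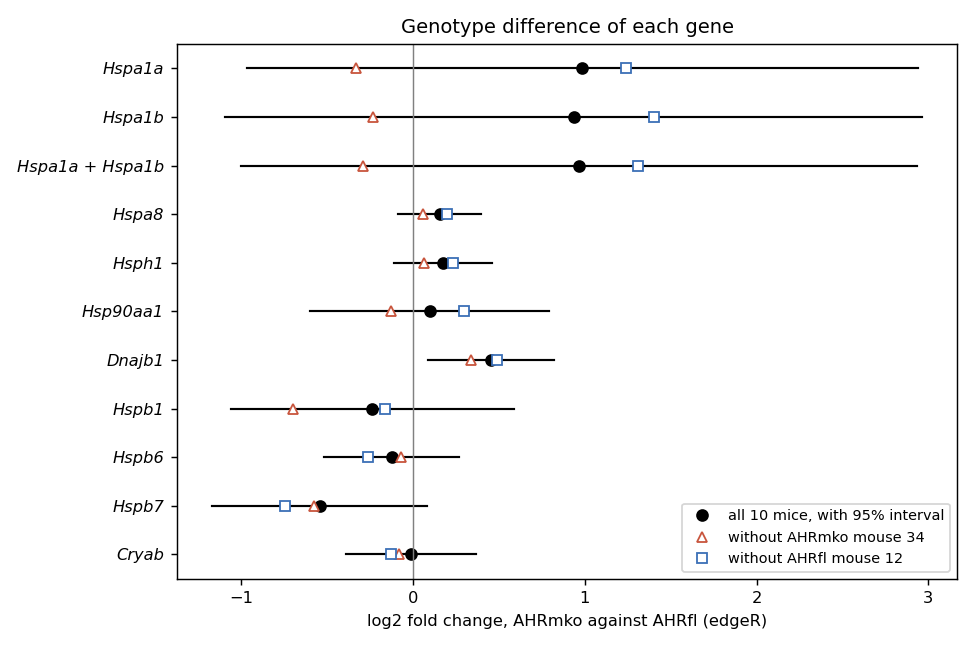
Log2 fold change of AHRmko over AHRfl for each gene (filled circles with 95% intervals from edgeR), and the estimate without AHRmko 34 (triangles) or without AHRfl 12 (squares). The triangles of Hspa1a, Hspa1b and Hsp90aa1 lie below 0 and their circles above it, and the interval of Dnajb1 alone does not reach 0.

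Levels can be set against each other only per exon length. In TPM (counts per exon length, scaled to the same total in each mouse), Cryab had the highest mean over the 10 mice (1161 ± 237, SD), followed by Hspb6 (854 ± 190), Hspa8 (601 ± 83.3), Hspb7 (455 ± 161) and Hspb1 (401 ± 160). A lower tier held Hsp90aa1 (44.8 ± 15.6), Hsph1 (30.4 ± 5.27), Hspa1a (18.7 ± 23.4), Hspa1b (15.2 ± 18.1) and Dnajb1 (5.07 ± 1.45). The ranges over mice did not overlap between Hspb1, lowest at 206, and Hsp90aa1, highest at 72.2, and they overlapped between all other neighbours in this order. Cryab was above Hspb6 and Hsp90aa1 was above Hsph1 within each of the 10 mice, whereas Hspa8 was above Hspb7 in only 6. The length used is that of all annotated exons of a gene merged, 4301 bases for Hspa8 and 1479 for Cryab. It can exceed the length of the transcript present in muscle, which makes the level too low. The order of the genes, also of Hspa8 against Cryab or Hspb7, could change with another choice of length. Only uniquely mapped reads were counted, so these levels could lack reads that fit more than 1 copy and be too low for genes with copies. Of the 100-base words, 56.5% of those of Hspa1a and 49.9% of those of Hspa1b occur in other genes. The share was 28.5% for Hspa8, 38% for Hsp90aa1 and 44% for Hspb1. The nearest copies of Hspa8, Hsp90aa1 and Hspb1, which are Gm15459, Gm12346 and Hsp25-ps1, had at most 31, 54 and 44 counts in any mouse.

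**Figure D3:**
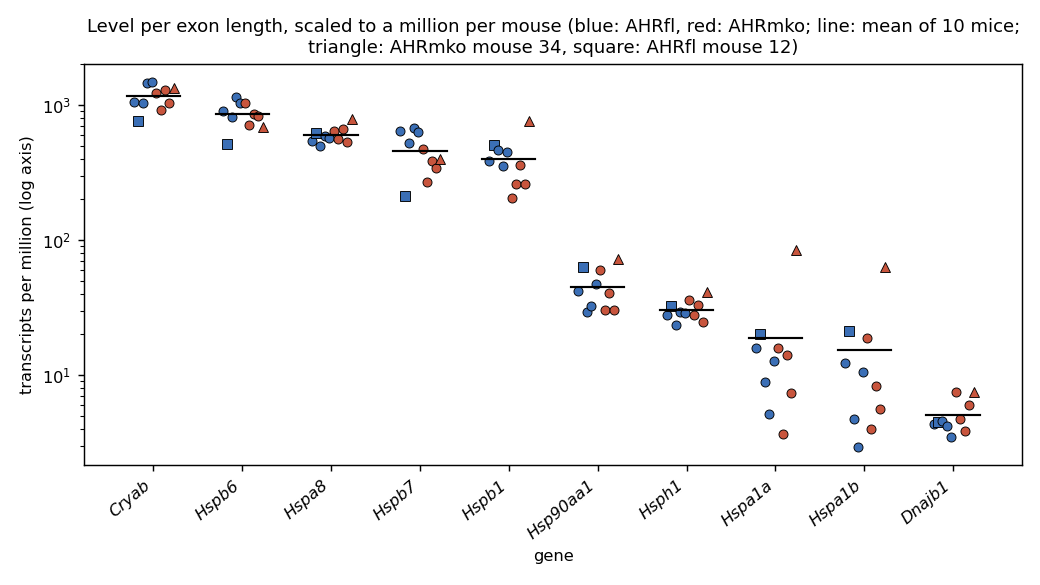
Level per exon length in TPM on a log axis, 1 point per mouse (blue AHRfl, red AHRmko), with a line at the mean of the 10 mice. 4 small heat shock protein genes and Hspa8 lie above 200 in every mouse, and the other 5 genes lie below 100.

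Across the mice, the members other than Hspa1a and Hspa1b gave 28 pairs. In log2 CPM, 3 of them correlated at an adjusted p under 0.05 by Pearson's r and 5 by Spearman's rho, all positively (permutation test with 100000 resamples, Benjamini-Hochberg over the 28 pairs). How often pairs of other genes correlate in these mice was not computed. These counts therefore do not show a trait particular to the members. Hspa8 and Hsph1, HSC70 and its exchange factor, had r = 0.96 (permutation p = 2e-05, adjusted p = 0.00056) and rho = 0.98 (permutation p = 5e-05, adjusted p = 0.0014) over the 10 mice, and r = 0.95 without the 2 mice farthest from the median of Hspa8. Hsph1 and Hsp90aa1 had r = 0.86 (permutation p = 0.00138, adjusted p = 0.0129) and rho = 0.83 (permutation p = 0.00474, adjusted p = 0.0452), and r = 0.86 without the 2 farthest mice. Without AHRmko 34 alone this call was lost, at r = 0.78 (adjusted p = 0.0918 by permutation test). Hspa8 and Hsp90aa1 had r = 0.77 (permutation p = 0.00761, adjusted p = 0.0533) and rho = 0.83 (permutation p = 0.00484, adjusted p = 0.0452), r = 0.81 without the 2 farthest mice and r = 0.62 without AHRmko 34 alone.

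Hspb6 and Hspb7 had r = 0.87 (permutation p = 0.00105, adjusted p = 0.0129) and rho = 0.81 (permutation p = 0.00708, adjusted p = 0.0476), and r = 0.70 without AHRfl 12 and AHRfl 15. Without AHRfl 12 alone this call was lost, at r = 0.77 (adjusted p = 0.108 by permutation test). Cryab had r = 0.74 with Hspb6 (permutation p = 0.0123, adjusted p = 0.0687), rho = 0.79 (permutation p = 0.0085, adjusted p = 0.0476), and r = 0.40 without the same 2 mice, while without AHRmko 34 alone it was 0.91 (adjusted p = 0.00308 by permutation test). The relation of Cryab and Hspb6 therefore depends on which mice are counted. With each gene centred on its genotype mean, r was 0.96 for Hspa8 and Hsph1, 0.89 for Hsph1 and Hsp90aa1 and 0.90 for Hspb6 and Hspb7.

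The 17 pairs with Hspa1a or Hspa1b are given as a description, since the value in AHRmko 34 chose them. Hspa1a and Hspa1b had r = 0.95. Hspa1a and Hsp90aa1 had r = 0.88, and 0.83 without AHRmko 34. The r of Hspa1a with Hspa8 went from 0.79 to 0.48, and that of Hspa1a with Hsph1 from 0.79 to 0.54, when AHRmko 34 was left out. Hspa1a and Cryab had r = 0.20.

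**Figure D4:**
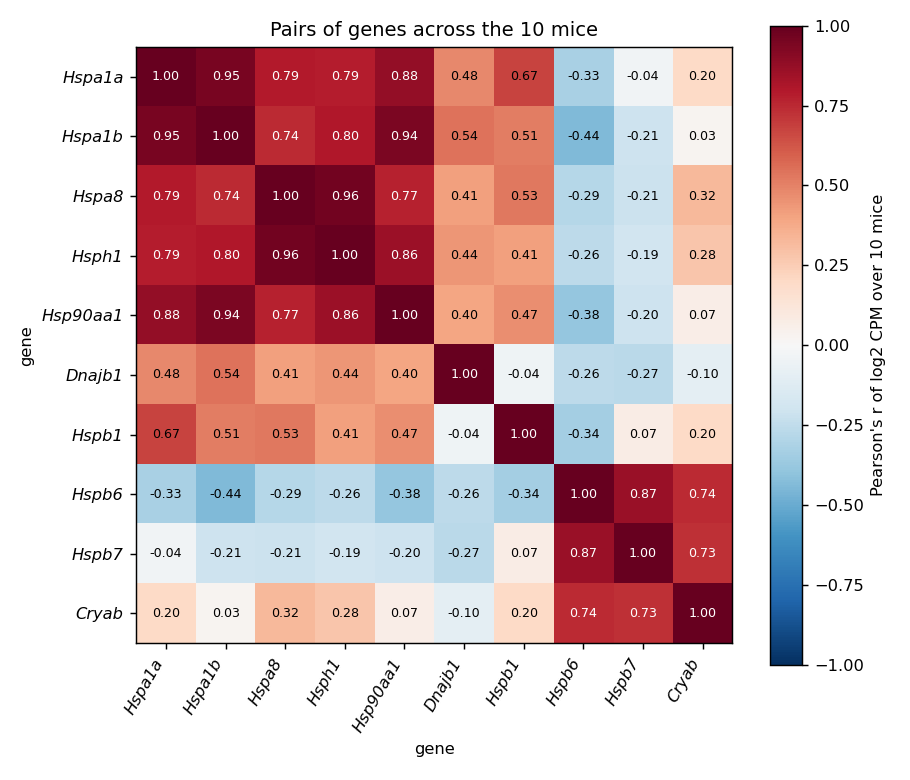
Pearson's r of log2 CPM over the 10 mice for each pair of genes, red for positive and blue for negative values. The red block at the upper left holds Hspa1a, Hspa1b, Hspa8, Hsph1 and Hsp90aa1, and the block at the lower right holds Hspb6, Hspb7 and Cryab.

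Among 12131 genes with a mean of at least 1 CPM, the 5 whose log2 CPM most resembled that of Hspa1a over the 10 mice were Hspa1b (r = 0.95), Dnajb2 (0.95), Rpia (0.94), Ppp1r27 (0.93) and Frmd6 (0.91). This list is a description that leans on the value in AHRmko 34 for which Hspa1a was chosen. Over the 9 other mice the 5 nearest were Rpia (r = 0.95), Itgb3 (0.91), Hspa1b (0.90), Card19 (0.90) and Gm16062 (0.90), while Dnajb2 (0.87), Ppp1r27 (0.83) and Frmd6 (0.79) were at ranks 12, 25 and 53. Rpia encodes an enzyme of the pentose phosphate pathway and Dnajb2 an HSP40 of neurons and muscle. The 5 nearest to Cryab over the 10 mice were Pqlc1 (0.93), Smpd1 (0.93), Snhg17 (0.90), Ass1 (0.89) and Itga2b (0.89). Smpd1 encodes acid sphingomyelinase and Ass1 argininosuccinate synthase, while Snhg17, Ass1 and Itga2b were at mean levels of 2.61, 2.68 and 1.37 CPM.

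Other measured features also set AHRmko 34 and AHRfl 12 apart from most of the other mice. Immediate early genes, transcription factors and signalling genes that rise within minutes of stress or injury, were highest in AHRfl 12 for 9 of 15 and in AHRmko 34 for 3 of 15, against 15.9% and 10.9% of all genes tested, and their summed level was 1386 CPM in AHRfl 12, 1287 CPM in AHRmko 34 and 574 to 995 CPM in the other 8 mice. Atf3 was at 130 CPM in AHRmko 34, 36.6 CPM in AHRfl 12 and 5.92 to 66.7 CPM in the others. Fos was at 80.0 CPM in AHRfl 12, 51.3 CPM in AHRmko 34 and 2.23 to 32.0 CPM in the others. The 10 fast fibre genes summed to 181650 CPM in AHRfl 12 and 176879 CPM in AHRmko 34, the 2 highest sums, against 129009 to 163289 CPM in the others. Within that list Myh4, the myosin of the fastest fibres, was at 66541 CPM in AHRfl 12 and 63948 CPM in AHRmko 34. Myh1 and Myh2, the myosins of less fast fibres, were low there instead, Myh1 at 1251 CPM in AHRfl 12 and 1230.0 CPM in AHRmko 34, the lowest of all, and Myh2 at 297 CPM in AHRfl 12, the lowest, and 1173 CPM in AHRmko 34 (highest mouse 4726 CPM for Myh1 and 4218 CPM for Myh2). Markers of endothelium were lowest in the same 2 mice, at 145 CPM in AHRfl 12 and 159.5 CPM in AHRmko 34, against 178 to 277 CPM. These features did not follow the Hspa1 pair in every other mouse. AHRmko 8, the next highest for the summed pair (38.7 CPM), had 705 CPM of immediate early genes and the highest endothelial sum (277 CPM). AHRfl 13 had 995 CPM of immediate early genes but 17.3 CPM for the pair. Summed markers of smooth muscle (317 CPM) and of erythroid cells (105 CPM) were also lowest in AHRfl 12, against up to 529 and 482 CPM in the highest mouse. The next lowest mice were close, AHRmko 34 at 324 CPM for smooth muscle and AHRfl 11 at 111 CPM for erythroid cells. AHRfl 12 was lowest for only 1 of the 6 smooth muscle markers and 2 of the 5 erythroid markers. The 9 slow fibre genes summed to 98.8 CPM in AHRfl 12, the lowest, and AHRfl 12 was lowest for 8 of the 9. Their sum did not set AHRmko 34 apart, at 317 CPM against 256 to 2430 CPM in the other 8 mice. Myh7, the slow myosin heavy chain, was at 3.32 CPM in AHRfl 12 and 48.1 CPM in AHRmko 34, and no slow fibre gene was at 0 in any mouse. When the slow fibre score entered the fit, the log2 fold change of Hspb7 was -0.65 and that of Hspb6 -0.23, both with adjusted p above 0.05 in edgeR (0.592 and 0.613).

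AHRmko 34 also had the lowest summed markers of adipocytes (7.18 CPM, against 9.02 to 61.3 in the others), Schwann cells (35.4 CPM, against 43.0 to 115) and fibroblasts (293 CPM, against 298 to 590), with none of the markers tested at 0 in any mouse. AHRmko 34 was not the lowest for most of the fibroblast markers, and 3 of these 6 were lowest in AHRfl 12. The part of stress genes, fibre type and other cells in the members' levels was not tested. In these bulk samples, fewer cells of a type and less RNA per cell cannot be told apart.

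**Figure D5:**
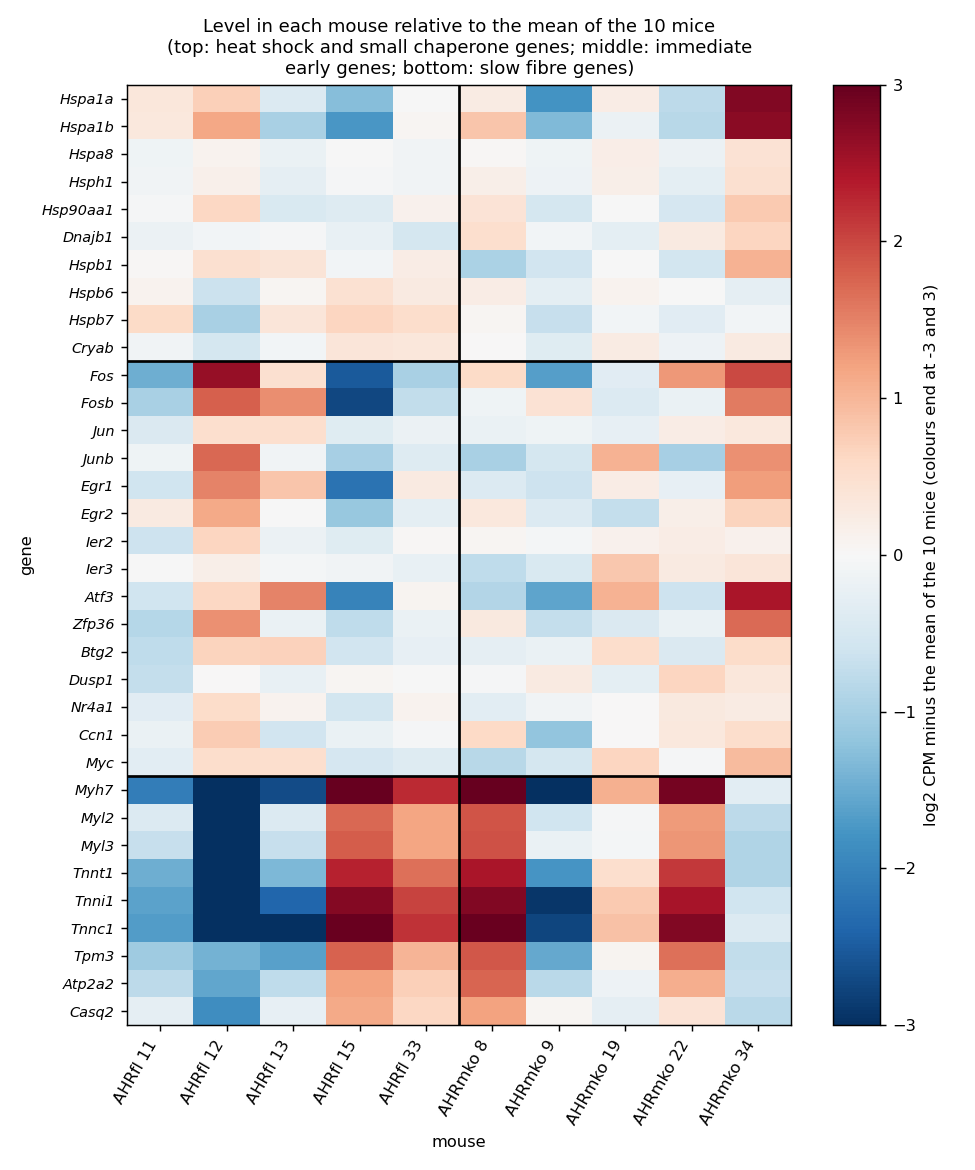
Log2 CPM of each gene in each mouse minus its mean over the 10 mice, for the 10 members (top), 15 immediate early genes (middle) and 9 slow fibre genes (bottom), with colours ending at 3 log2 units on either side. AHRmko 34 is red in the rows of the 7 members it is highest for and in many of the immediate early genes, and AHRfl 12 is red in the middle block and blue in the bottom block.

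Beyond the members, 73 genes of the wider chaperone network were tested, of which edgeR called 0 at an adjusted p of 0.05. At an unadjusted p under 0.05, 3 were lower in AHRmko and 0 higher, against 3.38% and 3.23% of all genes. Bag1, a nucleotide exchange factor of HSP70, was at 170 ± 8.86 and 135 ± 18.9 CPM in AHRfl and AHRmko (SD, n = 5 each, log2 fold change -0.34, SE 0.09, edgeR adjusted p = 0.606, two-sided exact permutation p = 0.0159). Hspa1l, the HSP70 gene next to Hspa1a and mainly known from testis, was at 19.7 ± 3.12 and 15.3 ± 1.75 CPM (log2 fold change -0.36, SE 0.11, edgeR adjusted p = 0.606, exact permutation p = 0.0397). In AHRmko 34 it was at 14.2 CPM, where all mice ran from 13.6 CPM in AHRmko 22 to 24.4 CPM in AHRfl 13. Clpp, the mitochondrial matrix protease, had a log2 fold change of -0.18 (SE 0.06, edgeR adjusted p = 0.629, exact permutation p = 0.00794, the smallest that 252 splits can give).

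Of the heat shock factor list, with Hsf1, Hsf2, Hsf4 and the heat shock factor binding protein gene Hsbp1 tested, Hsf1 had the highest log2 fold change, 0.02, and Hsf2 the lowest, -0.17. Among 11 HSP40 co-chaperones the values ran from -0.28 for Dnaja4 to 0.26 for Dnaja1, and AHRmko 34 was highest for 4 of them. Among 12 genes of HSP90 and its cofactors they ran from -0.19 for Fkbp5 to 0.20 for Unc45b, the myosin chaperone, and AHRmko 34 was highest for 4 and AHRfl 12 for 3. The 9 HSP70 cofactors ran from Bag1 to Bag4 (0.30), and the other 8 cytosolic HSP70 and HSP110 genes from Hspa1l to Hspa12b (0.31). The 4 other small heat shock protein genes tested lay between -0.05 (Hspb3) and 0.07 (Hspb11), with AHRmko 34 highest for 3 of them. The 10 mitochondrial chaperones ran from Clpp to Hspd1 (0.11), the HSP60 gene, and AHRmko 34 was highest for 0 of them. The 15 chaperones of the endoplasmic reticulum ran from Manf (-0.23) to Herpud1 (0.08), and 12 of the 15 were highest in AHRfl 12, against the same 15.9% of all genes tested. In summed level, AHRmko 34 was highest for HSP40 co-chaperones (1250.1 CPM), HSP70 cofactors (904 CPM), HSP90 and its cofactors (3001 CPM) and the other small heat shock proteins (903 CPM). For the heat shock factors with Hsbp1 it was barely ahead, at 226 CPM (Hsbp1 117 CPM) against 224 CPM in AHRfl 12. For the mitochondrial chaperones AHRmko 34 (1264.5 CPM) and AHRfl 33 (1264.8 CPM) were almost level as the lowest mice. AHRfl 12 was highest for the chaperones of the endoplasmic reticulum (1325 CPM) and AHRmko 8 for the other cytosolic HSP70 and HSP110 genes (214 CPM).

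The libraries held 30393035 to 37954388 counts each. Ahr was at 2.02 ± 0.68 CPM in AHRfl and 1.58 ± 0.44 CPM in AHRmko (log2 fold change -0.35, edgeR adjusted p = 0.844), and since only the floxed exon is removed, counts over the whole gene do not check the deletion. Esr1, part of which the MerCreMer transgene carries, was at 17.1 ± 1.14 and 371 ± 173 CPM and separated the groups as labelled. Ddx3y, a Y-linked gene, was at 57.0 to 75.5 CPM in all mice, while Xist reached more than 1 CPM in 5 of them. When mice with and without Xist counts were told apart in the fit, the log2 fold change was 0.21 for Hspa1a and -0.09 for Hsp90aa1. Muscle genes marked the tissue, with Acta1 at 21800 to 28338 CPM.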

How the data were processed

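Poly(A)-selected, paired-end RNA-seq of gastrocnemius from 5 AHRfl and 5 AHRmko mice was analysed. The authors trimmed reads (Trimmomatic 0.36, per the submitters' processing notes), mapped them to GRCm38 with STAR 2.5.2b and deposited raw counts of uniquely mapped exonic reads per Ensembl gene from featureCounts. The Ensembl release was not given in the sources used here. Counts were tested with edgeR 4.0.16 (R 4.3.3, limma 3.58.1): filterByExpr with a minimum count of 10 and total of 15, TMM, robust quasi-likelihood fit, Benjamini-Hochberg adjustment over 14714 genes at 0.05. CPM used TMM library sizes, and log2 CPM a prior count of 2. TPM are counts per kb of the merged GENCODE M21 exons of each gene, scaled to one total per mouse. Libraries held totals of 30393035 to 37954388 counts. Intervals are for the log2 fold change between the groups, and their width depends on the spread between mice as well as on depth. Each mouse is 1 library.

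The members and gene lists were chosen with earlier results of these data known. Named genes are the members, the genotype and sex checks, the highest and lowest gene of each chaperone list with any at an unadjusted p under 0.05, and the 5 genes nearest to Hspa1a and to Cryab. Atf3, Fos, Myh1, Myh2, Myh4, Myh7, Hsf4, Hsbp1 and Acta1 were named after their values were seen. Alternatives were DESeq2 1.42.0, limma-voom, other scalings and filters, no robust estimation, covariates, and leaving out each mouse. A covariate for mice with Xist counts, the pairs without Hspa1a and Hspa1b, and the genes nearest to Hspa1a without AHRmko 34 were added after the data were seen. Scripts were tested on simulated data.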

Additional observations from a re-analysis of the deposited data

Results flagged for a closer look

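Within each group of 5 mice, the gap of the extreme mouse to its nearest neighbour was taken as a share of the group's range in CPM, with 0.71 as the limit for 5 values. Hspb7 in AHRfl 12, the lowest of its group, had a gap of 0.7349 in CPM and 0.825 on the log2 scale, so it stood apart on both. About 1 such value is given by chance over 20 groups of mice. Hspa1a in AHRmko 34, with a gap of 0.8635, is the value the genes were chosen for. Hspa1b, its near-copy, had a gap of 0.7743 in the same mouse. These gaps, 0.555 and 0.464 on the log2 scale, only describe the chosen values and are no test.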

How the results depend on the processing

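0 of the 8 members other than Hspa1a and Hspa1b were called under each alternative run, and the number of genes called was 1 except with DESeq2 (10), without a filter beyond 1 count in all (5), with the slow fibre score as covariate (2) and without AHRmko 34 (6). Leaving out 1 mouse at a time gave 1 to 6 genes called, a median log2 fold change of the members of -0.106 to 0.217 and a log2 fold change of the summed Hspa1 pair of -0.289 to 1.31. Signs turned for Cryab in limma-voom (0.00423) and without AHRfl 15 (0.0783), AHRfl 33 (0.0756), AHRmko 9 (0.0657) or AHRmko 22 (0.0242). They turned for Hsp90aa1 with the Xist covariate (-0.0869), without AHRfl 13 (-0.00228) and without AHRmko 34 (-0.130), where Hspa1a (-0.334) and Hspa1b (-0.233) turned as well. Leaving out 1 mouse at a time gave -0.334 to 1.27 for Hspa1a, -0.233 to 1.40 for Hspa1b, -0.130 to 0.294 for Hsp90aa1 and -0.128 to 0.0783 for Cryab. The cause was not tested. Of the 28 member pairs without Hspa1a and Hspa1b, a choice made after seeing the data, 3 were correlated, and 2 to 4 when 1 mouse was left out, 2 without AHRfl 12. No share over pairs of other genes was computed to set beside these counts. Counts over all 45 pairs were 10, 5 to 12 with 1 mouse left out, 5 without AHRfl 12, 6 without AHRmko 34, AHRfl 13, AHRmko 9 or AHRmko 22, and 15 with genotype means removed. They include 17 pairs with Hspa1a or Hspa1b, 6 of the 10, whose value in AHRmko 34 chose them, and are given as a description that supports nothing. No paired analysis was possible because the groups share no replicate numbers. Hspa1a, Hspa1b and Dnajb1 had as few as 162, 119 and 147 counts in a mouse, and 5 mice per group limited the intervals of the inducible genes.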
